A study of Mus musculus with 4 samples.

Results

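The genes described here encode part of the insulin-like growth factor (IGF) system. They are the ligands *Igf1* and *Igf2*, the receptors *Igf1r* and *Igf2r* and the IGF-binding proteins *Igfbp2* to *Igfbp7*. Another binding protein gene, *Igfbp1*, is not among them and had 0 reads in every library. The 10 genes were chosen by name, as the RefSeq transcripts that carry their symbols, out of 22463 gene symbols. No rule on their values was used, but earlier results of these data were known when they were chosen. Each gene is represented by the transcript with most reads over all libraries. RNA-Seq was done on brown preadipocytes of *Mll3*-/- *Mll4* f/f mouse embryos (C57BL/6J) that had been immortalized with SV40T. The cells were infected with an adenovirus carrying GFP (Ad-GFP) or the recombinase Cre (Ad-Cre), which deletes the floxed part of *Mll4* in whichever cells it infects. Ad-GFP cells therefore kept *Mll4* but, although the labels call them wild type, lacked *Mll3* as the Ad-Cre cells did. RNA was taken before (day 0) and 2 days after (day 2) adipogenesis was induced with insulin, T3, indomethacin, dexamethasone and IBMX, so both days of either kind of cells differ in medium as well as in time.

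IGF1 and IGF2 are secreted growth factors that act through IGF1R, a receptor tyrosine kinase related to the insulin receptor, and both receptors pass their signal to the docking proteins IRS1 and IRS2. IGF2R, also known as the cation-independent mannose 6-phosphate receptor, takes IGF2 up for breakdown in lysosomes and does not signal as IGF1R does. The binding proteins hold IGFs in the extracellular space, where they can prolong, block or locally release IGF action, and secreted proteases release IGFs by cutting them. In preadipocytes IGF1 and insulin are known to favour proliferation and adipogenesis.

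Each of the 4 conditions was 1 library, so no difference between conditions could be tested, and n = 1 for every value below. Exact binomial (Clopper-Pearson) 95% intervals are given for each log2 ratio. They compare libraries, cover counting error only and treat reads as independent, which PCR copies are not. Expression is given as RPKM, in which reads are scaled to the kilobases of exon and to the mapped reads of the library. Mapped reads ran from 17198448 to 22986362 per library, at which 3 reads on 1 kb of exon correspond to between 0.131 and 0.174 RPKM. The Ad-Cre day 2 library stood apart in its length dependence. Its median log2 ratio to the Ad-GFP day 2 library ran from 0.38 in the fifth of expressed genes with the shortest exon length to −0.67 in the fifth with the longest, whereas at day 0 these medians were −0.15 and 0.00093. Its counts on listed transcripts summed to 87.8% of its mapped reads, against 96.1% to 99.4% in the others. Its ratios to its own day 0 library showed the same, with medians from 0.64 to −0.53. For comparisons with this library, values less the median of genes of like exon length are therefore given as well. Reads on the whole *Mll4* transcript (*Kmt2d* in the files) numbered 6304 and 8530 in the Ad-GFP cells at days 0 and 2, and 6316 and 5595 in the Ad-Cre cells. *Mll3* (*Kmt2c*) had 522, 1224, 463 and 451 reads in the same order of Ad-GFP and Ad-Cre libraries. Cre removes only some exons of *Mll4*, whose loss a count over the whole transcript does not show. The *Mll3* allele of the study carries a gene trap inserted within an intron, and reads on *Kmt2c* were present in all 4 libraries. Neither knockout could be checked from these counts.

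The promoters of 4 binding protein genes are shown because these genes had the largest ratios between days in the Ad-GFP cells. *Igfbp2*, *Igfbp3* and *Igfbp4* rose past 2.5-fold from day 0 to day 2 in both kinds of cells, and *Igfbp6* was the member that fell past it in the Ad-GFP cells. Each sequence runs from 250 bases before to 50 bases after the RefSeq start site, 5′ to 3′ on the gene's strand, and its position is that of its exact match on NCBI37/mm9. Capitals mark a match to a motif searched on both strands.

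Igfbp2 (chr1:72870804-72871103, plus strand): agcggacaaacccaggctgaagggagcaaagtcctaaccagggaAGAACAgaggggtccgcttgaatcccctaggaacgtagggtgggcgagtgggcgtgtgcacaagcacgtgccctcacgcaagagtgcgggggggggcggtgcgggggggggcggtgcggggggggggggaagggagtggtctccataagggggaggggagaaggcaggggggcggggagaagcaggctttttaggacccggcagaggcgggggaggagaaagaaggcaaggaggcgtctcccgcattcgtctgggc
Igfbp3 (chr11:7113877-7114176, minus strand): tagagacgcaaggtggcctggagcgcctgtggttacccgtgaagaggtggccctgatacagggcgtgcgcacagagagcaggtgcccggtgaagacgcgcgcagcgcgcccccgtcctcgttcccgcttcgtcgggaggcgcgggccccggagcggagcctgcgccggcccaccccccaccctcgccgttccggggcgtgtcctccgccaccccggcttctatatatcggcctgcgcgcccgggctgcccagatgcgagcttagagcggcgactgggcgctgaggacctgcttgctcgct
Igfbp4 (chr11:98902308-98902607, plus strand): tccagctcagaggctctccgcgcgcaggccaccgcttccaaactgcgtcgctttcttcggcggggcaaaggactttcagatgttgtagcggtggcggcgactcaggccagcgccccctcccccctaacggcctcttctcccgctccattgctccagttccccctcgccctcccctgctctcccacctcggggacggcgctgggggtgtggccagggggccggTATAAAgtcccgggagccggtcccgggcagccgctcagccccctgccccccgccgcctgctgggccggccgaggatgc
Igfbp6 (chr15:101974367-101974666, plus strand): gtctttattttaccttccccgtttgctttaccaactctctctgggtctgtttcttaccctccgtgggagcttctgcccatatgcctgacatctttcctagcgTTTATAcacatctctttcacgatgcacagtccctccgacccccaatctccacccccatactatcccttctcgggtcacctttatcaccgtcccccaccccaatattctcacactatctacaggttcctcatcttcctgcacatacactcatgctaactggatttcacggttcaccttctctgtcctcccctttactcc

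Of the searched motifs, *Igfbp2* held the hexamer AGAACA of the glucocorticoid response element, which begins at position −206 from the start site and occurs in 6233 of 32851 RefSeq promoters of this length. *Igfbp4* held the TATA box TATAAA at −28, and *Igfbp6* held it on the opposite strand at −148. The RefSeq start of *Igfbp6* lies 176 bases before the annotated start given with the position of the gene, so that its window ends upstream of the latter. TATAAA occurs in 13.6% of promoters. The C/EBP motif TTGCNNAA, found in 10.8% of promoters, and the cyclic AMP response element TGACGTCA, found in 1.79%, were in none of the windows of the 10 genes. Only the window nearest the annotated start was searched for each gene, though 4 promoters matched for *Igf2* and 2 for *Igfbp2*. The start sites used for *Igf1* and *Igf1r* were 2055 and 570 bases from those of the annotated transcripts. The GC content of the windows was 67.0% for *Igfbp2*, 71.7% for *Igfbp3* and 71.3% for *Igfbp4*, and 49.7% for *Igfbp6*, against a median of 52.7% over all promoters. A match of letters is a description of the window and does not show that a factor binds there.

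Positions of the genes are given on NCBI37/mm9. *Igfbp2* (chromosome 1, 72871077 to 72899048, plus strand) and *Igfbp5* (72904506 to 72921458, minus strand) lie end to end 5457 bases apart. *Igfbp3* (chromosome 11, 7106089 to 7113926, minus strand) lies 3539 bases from *Igfbp1*, which had 0 reads in every library. *Igfbp4* is on chromosome 11 (98902558 to 98913969), *Igfbp6* on chromosome 15 (101974793 to 101979942) and *Igfbp7* on chromosome 5 (77778265 to 77837070). *Igf1* is on chromosome 10 (87321010 to 87399792), *Igf1r* on chromosome 7 (75097713 to 75371484), and *Igf2* on the same chromosome (149836673 to 149852721). *Igf2r* is on chromosome 17 (12875272 to 12962530), where the antisense RNA *Airn* (12934177 to 13052988) overlaps it on the other strand. Whether the counting used strand is not given in the sources used here, so reads of *Igf2r* and *Airn* cannot be told apart in the overlap. Of the 50-base windows of the annotated transcripts, at most 0.601% per gene, in *Igfbp7*, matched elsewhere in the genome with up to 2 mismatches. The annotated transcript of *Igf1r* covers 34.9% of the exon length counted in the files and that of *Igfbp6* 86.3%, and the rest was not checked.

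All 10 genes were expressed, which means an RPKM above 1 on either day in the Ad-GFP libraries, a threshold that 11540 genes passed. *Igf1* passed by the day 0 library alone. By RPKM, *Igfbp7* was the highest of the 10 genes in both day 0 libraries and *Igfbp4* in both day 2 libraries, as the plot of levels shows. *Igf1* was the lowest of the 10 in all libraries but that of Ad-Cre cells at day 0, where *Igfbp3* was lower.

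**Figure D1:**
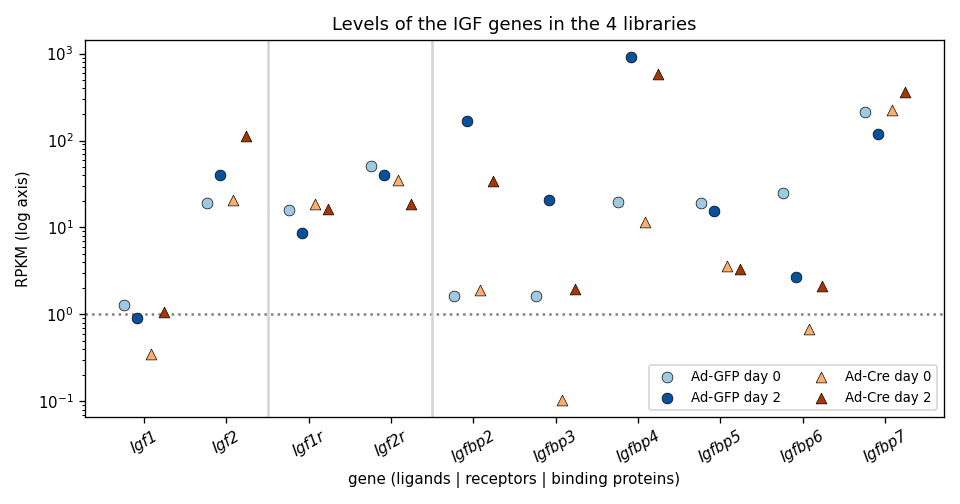
Level of each of the 10 genes in the 4 libraries, as RPKM on a log axis, with 1 point per library and the genes grouped as ligands, receptors and binding proteins. The dotted line is 1 RPKM, and *Igfbp4* reaches 905.5 RPKM in the Ad-GFP cells at day 2 while *Igfbp3* is at 0.105 RPKM in the Ad-Cre cells at day 0.

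Among the ligands, *Igf2*, which encodes the fetal growth factor expressed from the paternal allele, was the more abundant in every library. *Igf2* (NM_010514) had 1320 reads (19.01 RPKM) and 3726 reads (40.1 RPKM) in the Ad-GFP cells at days 0 and 2, and 1636 reads (20.8 RPKM) and 8207 reads (112.7 RPKM) in the Ad-Cre cells. Both day 0 libraries were thus close, and the Ad-Cre day 2 library was the highest. *Igf1* (NM_010512), whose product is the main circulating IGF after birth and is also made locally, had 156 reads (1.27 RPKM) and 148 reads (0.90 RPKM) in the Ad-GFP cells at days 0 and 2, and 49 reads (0.35 RPKM) and 138 reads (1.07 RPKM) in the Ad-Cre cells. Its Ad-Cre day 0 library was the low one of the set. The RPKM of *Igf2* was 14.9 times that of *Igf1* in the Ad-GFP cells at day 0 and 44.4 times at day 2, and 58.9 and 105 times in the Ad-Cre cells.

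Of the receptors, *Igf2r* had more mRNA per length than *Igf1r* in every library, but by an unequal margin. *Igf1r* (NM_010513), the signalling receptor, had 3235 reads (15.7 RPKM) and 2377 reads (8.63 RPKM) in the Ad-GFP cells at days 0 and 2, and 4331 reads (18.5 RPKM) and 3477 reads (16.1 RPKM) in the Ad-Cre cells. Only the Ad-GFP day 2 library of these 4 was below 10 RPKM. *Igf2r* (NM_010515), the clearance receptor, had 7769 reads (50.6 RPKM) and 8271 reads (40.3 RPKM) in the Ad-GFP cells, and 6133 reads (35.2 RPKM) and 2962 reads (18.4 RPKM) in the Ad-Cre cells. It was lower in the Ad-Cre cells at either day. The ratio of *Igf2r* to *Igf1r* was 3.22 and 4.67 in the Ad-GFP cells at days 0 and 2, and 1.90 and 1.14 in the Ad-Cre cells.

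The binding protein genes covered the widest range of levels. *Igfbp4* (NM_010517), whose product binds IGFs until the protease PAPP-A cuts it, had 689 reads (19.4 RPKM) and 43001 reads (905.5 RPKM) in the Ad-GFP cells at days 0 and 2, and 463 reads (11.5 RPKM) and 21931 reads (588.7 RPKM) in the Ad-Cre cells. By RPKM it was rank 4 of 22463 genes in the Ad-GFP cells at day 2 and rank 28 in the Ad-Cre cells, from ranks 2967 and 4797 at day 0. *Igfbp7* (NM_001159518), which encodes a secreted protein with weak affinity for IGFs, had 4474 reads (214.5 RPKM) and 3270 reads (117.3 RPKM) in the Ad-GFP cells, and 5299 reads (223.9 RPKM) and 7951 reads (363.5 RPKM) in the Ad-Cre cells. Its day 0 libraries were alike, and its day 2 libraries lay below and above them.

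*Igfbp2* and *Igfbp3* were low at day 0. *Igfbp2* (NM_008342), whose product is one of the binding proteins made by fat cells, had 37 reads (1.62 RPKM) and 5100 reads (167.2 RPKM) in the Ad-GFP cells at days 0 and 2, and 49 reads (1.89 RPKM) and 821 reads (34.3 RPKM) in the Ad-Cre cells. *Igfbp3* (NM_008343), which encodes the main IGF carrier of serum, had 69 reads (1.64 RPKM) and 1172 reads (20.9 RPKM) in the Ad-GFP cells, and 5 reads (0.105 RPKM) and 87 reads (1.98 RPKM) in the Ad-Cre cells. The Ad-Cre day 2 level of *Igfbp3* was thus near its Ad-GFP day 0 level, whereas that of *Igfbp2* was far above it.

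*Igfbp5* and *Igfbp6* were highest in the Ad-GFP day 0 library. *Igfbp5* (NM_010518), whose product also binds extracellular matrix, had 1917 reads (19.04 RPKM) and 2091 reads (15.5 RPKM) in the Ad-GFP cells at days 0 and 2, and 409 reads (3.58 RPKM) and 356 reads (3.37 RPKM) in the Ad-Cre cells. The libraries of this gene parted by virus and little by day. *Igfbp6* (NM_008344), whose product prefers IGF2 over IGF1, had 554 reads (24.99 RPKM) and 79 reads (2.67 RPKM) in the Ad-GFP cells, and 17 reads (0.68 RPKM) and 49 reads (2.11 RPKM) in the Ad-Cre cells. Its Ad-GFP day 0 library stood above the other three.

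As a share of the summed RPKM of the 6 binding protein genes, *Igfbp7* made up 76.3% in the Ad-GFP cells and 92.7% in the Ad-Cre cells at day 0. At day 2 *Igfbp4* was the largest share, with 73.7% in the Ad-GFP cells and 59.2% in the Ad-Cre cells, and *Igfbp7* made up 9.54% and 36.6%. *Igfbp2* made up 13.6% in the Ad-GFP cells and 3.45% in the Ad-Cre cells at day 2. *Igfbp6* made up 8.89% and *Igfbp5* 6.77% in the Ad-GFP cells at day 0, against 0.28% and 1.48% in the Ad-Cre cells. The sum itself was 281.1 and 1229 RPKM in the Ad-GFP cells at days 0 and 2, and 241.6 and 994 RPKM in the Ad-Cre cells. These shares and sums were not corrected for the length dependence of the Ad-Cre day 2 library. *Igfbp7* has the shortest exon length of the 6 genes.

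**Figure D2:**
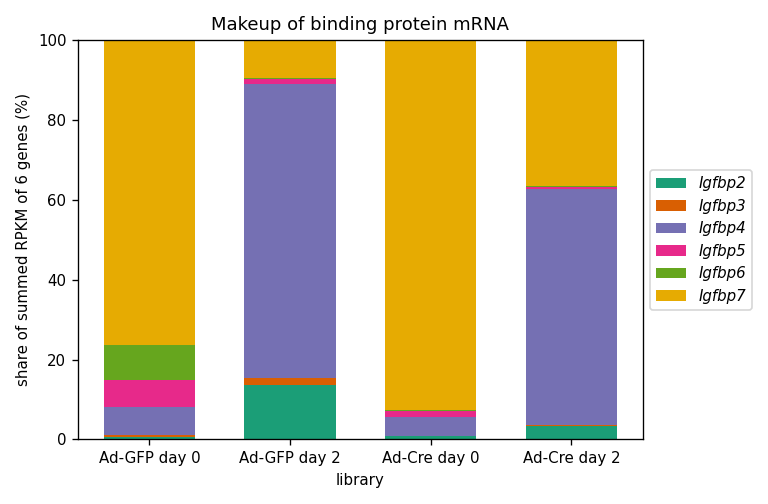
Makeup of binding protein mRNA in each library, as the share in percent of the summed RPKM of 6 genes, with 1 bar per library. *Igfbp7* takes 76.3% and 92.7% of the day 0 bars of Ad-GFP and Ad-Cre cells, and *Igfbp4* takes 73.7% and 59.2% of the day 2 bars.

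The first comparison asked which IGF genes changed from day 0 to day 2 in the Ad-GFP cells. Of the 10 genes, 3 rose past 2.5-fold (*Igfbp2*, *Igfbp3* and *Igfbp4*), against 8.38% of expressed genes, and 1 fell past it (*Igfbp6*), against 12.7% of expressed genes. *Igfbp2* rose 103.1-fold (log2 ratio 6.69, 95% interval 6.22 to 7.20) and was rank 26 from the highest of 11479 expressed genes with reads in both libraries. *Igfbp4* rose 46.7-fold (5.55, 5.44 to 5.66) and *Igfbp3* 12.7-fold (3.67, 3.32 to 4.04). *Igfbp6* was 9.37-fold lower at day 2 (−3.23, −3.59 to −2.89). *Igf2* was 2.11-fold higher (1.08, 0.99 to 1.17), short of the threshold. *Igfbp7* (−0.87), *Igf1r* (−0.86), *Igf1* (−0.49), *Igf2r* (−0.33) and *Igfbp5* (−0.29) had log2 ratios below 0 that did not pass it. The median log2 ratio of the 10 genes was −0.31, beside 0.15 over all expressed genes.

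In Ad-Cre cells, 6 of the 10 genes rose past 2.5-fold from day 0 to day 2, against 8.67% of expressed genes, and none fell past it, against 10.0% of expressed genes. *Igfbp4* rose 51.2-fold (5.68, 5.55 to 5.82), rank 12 from the highest of 11469. *Igfbp3* rose 18.8-fold, but from 5 reads, and its interval was wide (4.24, 2.96 to 5.89). *Igfbp2* rose 18.1-fold (4.18, 3.76 to 4.63) and *Igf2* 5.43-fold (2.44, 2.36 to 2.52). *Igfbp6* rose 3.12-fold (1.64, 0.82 to 2.53) and *Igf1* 3.05-fold (1.61, 1.13 to 2.11), both from low counts, and the lower bound of either interval was short of 2.5-fold. With 1 RPKM added to both sides neither was past the threshold (0.89 and 0.62), which left 4 genes past it. Of all expressed genes, 592 in place of 1000 then rose past it. *Igfbp7* (0.70), *Igfbp5* (−0.09), *Igf1r* (−0.20) and *Igf2r* (−0.94) did not pass the threshold. The median over the 10 genes was 1.62, beside −0.01 over all expressed genes. Less the median of genes of like exon length, 5 genes were past the threshold in Ad-Cre cells, namely *Igfbp4* (5.57), *Igfbp3* (4.21), *Igfbp2* (3.74), *Igf2* (2.72) and *Igf1* (2.21). Of the 11540 expressed genes, 804 rose and 1052 fell past it with the same correction. *Igfbp6* came to 1.04 and *Igfbp7* to 0.10, while *Igf1r* (0.46) and *Igfbp5* (0.39) turned to values above 0 and *Igf2r* came to −0.27.

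**Figure D3:**
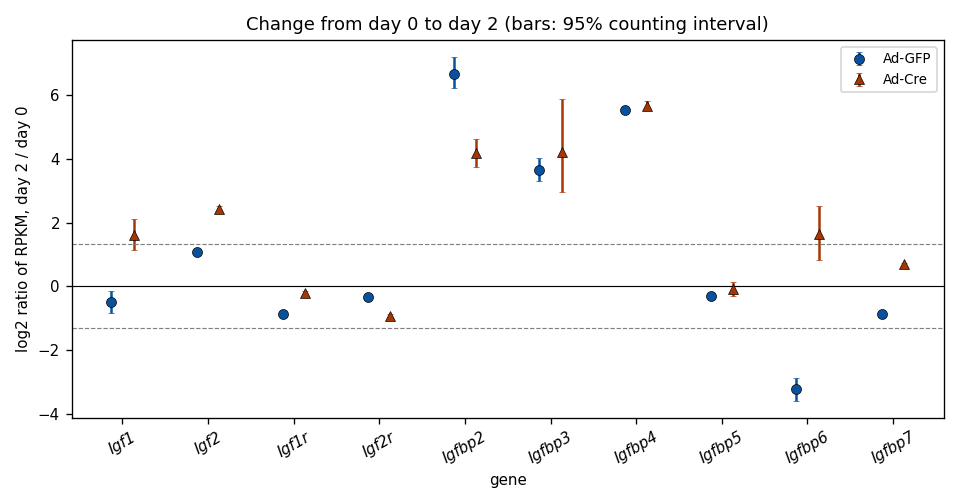
Log2 ratio of RPKM at day 2 to day 0 of each gene in the Ad-GFP and Ad-Cre cells, with 1 point per pair of libraries, bars for the 95% counting interval and dashed lines at 2.5-fold. *Igf1*, *Igfbp6* and *Igfbp7* lie on opposite sides of 0 in the 2 kinds of cells, at −0.49 and 1.61, −3.23 and 1.64, and −0.87 and 0.70.

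The ratios of day 2 to day 0 were then set against each other. The ratio was over 2.5-fold larger in the Ad-Cre than in the Ad-GFP cells for 4 genes, against 11.3% of expressed genes, and over 2.5-fold smaller for 1, against 11.1%. The 4 were *Igfbp6*, by 29.2-fold (log2 difference 4.87, 95% interval 3.96 to 5.82), *Igf1*, by 4.29-fold (2.10, 1.51 to 2.71), *Igfbp7*, by 2.97-fold (1.57, 1.49 to 1.65), and *Igf2*, by 2.57-fold (1.36, 1.24 to 1.48). At day 2 the levels of *Igfbp6* in the 2 kinds of cells were 2.67 and 2.11 RPKM and those of *Igf1* 0.90 and 1.07 RPKM, so that these genes differed between the cells mainly at day 0. *Igfbp2* had the smaller rise in the Ad-Cre cells, by 5.69-fold (−2.51, −3.17 to −1.85). The differences for *Igfbp4* (0.13, −0.04 to 0.31), *Igfbp5* (0.21, −0.02 to 0.43) and *Igfbp3* (0.57, −0.78 to 2.27) had intervals that held 0. Less the trend over exon length, the difference for *Igfbp7* was 1.16, no longer past the threshold, that for *Igf1r* went from 0.66 to 1.49, which is past it, and that for *Igf2r* turned from −0.61 to 0.22. With 1 RPKM added to both sides of each ratio, the difference for *Igf1* was 0.87, not past the threshold, and that for *Igfbp3* turned to −1.62.

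Before induction, the question was which genes differed between the kinds of cells at day 0. None of the 10 genes was over 2.5-fold higher in the Ad-Cre cells, against 1.27% of expressed genes, and 4 were over 2.5-fold lower (*Igfbp6*, *Igfbp3*, *Igfbp5* and *Igf1*), against 4.12%. Both shares are of genes that pass 1 RPKM in Ad-GFP cells. With genes that pass it in any of the 4 libraries, the number over 2.5-fold higher was 247 in place of 146. The number over 2.5-fold lower was then 495 in place of 475. Of the Ad-GFP libraries, *Igf1* passed 1 RPKM only in that of day 0, against which it is called lower here. *Igfbp6* was 36.97-fold lower (−5.21, −6.00 to −4.52), rank 8 from the lowest of 11483. *Igfbp3* was 15.7-fold lower (−3.97, −5.64 to −2.68), *Igfbp5* 5.32-fold lower (−2.41, −2.57 to −2.26) and *Igf1* 3.61-fold lower (−1.85, −2.35 to −1.38). With 1 RPKM added to both sides, *Igfbp3* (−1.26) and *Igf1* (−0.75) were no longer past the threshold. *Igfbp4* (−0.76) and *Igf2r* (−0.52) were lower and *Igf1r* (0.24), *Igfbp2* (0.22), *Igf2* (0.13) and *Igfbp7* (0.06) higher without passing it, and the interval of *Igfbp2* held 0 (−0.42 to 0.88). The median over the 10 genes was −0.64, beside −0.02 over all expressed genes.

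Preadipocyte markers were lower in the same Ad-Cre day 0 library, all 5 of them in direction and 4 past 2.5-fold, with a summed level of 245.3 RPKM in Ad-GFP against 25.2 RPKM in Ad-Cre cells. *Dlk1* was at 141.0 RPKM in the Ad-GFP and 10.2 RPKM in the Ad-Cre cells, *Pdgfra* at 73.6 and 9.72, *Cd34* at 11.1 and 0.35, *Ly6a* at 9.90 and 0.25 and *Ebf2* at 9.70 and 4.77. Their part in the lower *Igfbp3*, *Igfbp5*, *Igfbp6* and *Igf1* was not tested. In bulk RNA, fewer cells of a type and less RNA per cell cannot be told apart. The 13 markers of other cell types summed to between 0.171 and 1.51 RPKM per library. The highest sum was that of the Ad-Cre day 2 library, where *Des* of muscle had 49 reads. Of the 13, *Ptprc* and *Adgre1* of leukocytes, *Myog* of muscle and *Krt8* of epithelium had 0 reads in every library, and *Cdh5* of endothelium had at most 2. In the Ad-GFP day 0 library *Csf1r* of leukocytes had 16 reads, *Kdr* of endothelium 12 and *Des* 19. Of the brown fat markers, *Ucp1* had at most 1 read, *Cidea* 0 and *Ppargc1a* at most 9. *Prdm16* had 82 and 424 reads in the Ad-GFP libraries at days 0 and 2, where it rose 3.87-fold, and 116 and 105 reads in the Ad-Cre libraries.

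At day 2, the comparison of Ad-Cre with Ad-GFP cells found 2 of the 10 genes over 2.5-fold higher, *Igfbp7* and *Igf2*, against 8.15% of expressed genes. It found 3 over 2.5-fold lower, *Igfbp3*, *Igfbp2* and *Igfbp5*, against 10.1%. Over all expressed genes these were 940 higher and 1161 lower, and with TMM factors for scaling they were 1213 higher and 815 lower, whereas the same scaling gave 2 and 3 members. *Igfbp3* was 10.6-fold lower (−3.40, −3.73 to −3.09), rank 13 from the lowest of 11476. *Igfbp2* was 4.87-fold lower (−2.29, −2.39 to −2.18) and *Igfbp5* 4.61-fold lower (−2.20, −2.37 to −2.04). *Igfbp7* was 3.10-fold higher (1.63, 1.57 to 1.69) and *Igf2* 2.81-fold higher (1.49, 1.43 to 1.55). The median over the 10 genes was −0.48, beside −0.16 over all expressed genes.

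The other genes did not pass the threshold at day 2. *Igf2r* was 2.19-fold lower (−1.13, −1.19 to −1.07), *Igf1r* 1.86-fold higher (0.90, 0.82 to 0.97) and *Igfbp4* 1.54-fold lower (−0.62, −0.64 to −0.60). The intervals of *Igf1* (0.25, −0.10 to 0.59) and *Igfbp6* (−0.34, −0.88 to 0.19) held 0. The comparisons share libraries, and the day 2 Ad-Cre library enters this one and the one over time.

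The length dependence of the Ad-Cre day 2 library bears on these values. Less the median of genes of like exon length, the log2 ratios at day 2 were −3.25 for *Igfbp3*, −2.54 for *Igfbp2*, −1.57 for *Igfbp5* and 1.93 for *Igf2*, all past 2.5-fold. *Igfbp7*, with the shortest exon length of the 10 (1213 bases), came to 1.27, and *Igf1r*, with the longest (11978 bases), to 1.71, so that the first lost its place past the threshold and the second gained one. *Igf2r* (8929 bases) came to −0.32, *Igf1* (7121 bases) to 0.96, *Igfbp4* to −0.64 and *Igfbp6* to −0.70. With the trend over GC content also taken off, *Igfbp7* came to 0.81, *Igf1r* to 1.38, *Igfbp2* to −3.19 and *Igfbp4* to −1.21.

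**Figure D4:**
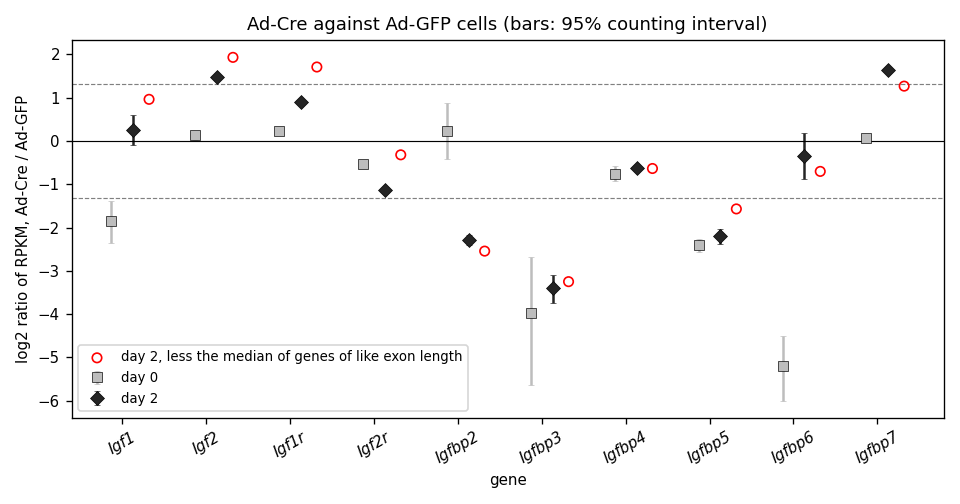
Log2 ratio of RPKM in Ad-Cre to Ad-GFP cells for each gene at day 0 (squares) and day 2 (diamonds), with bars for the 95% counting interval and dashed lines at 2.5-fold. Red circles are the day 2 ratios less the median of genes of like exon length, at which *Igf1r* moves from 0.90 to 1.71 and *Igfbp7* from 1.63 to 1.27.

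Adipocyte genes also differed between the day 2 libraries. All 6 markers were over 2.5-fold lower in the Ad-Cre library, which held 490.4 RPKM of them in sum against 1999 RPKM, and all 6 rose past 2.5-fold over time in both kinds of cells. *Fabp4*, a fatty acid carrier, was at 4.17 and 892.8 RPKM in the Ad-GFP cells at days 0 and 2, and at 4.24 and 222.8 RPKM in the Ad-Cre cells. *Cebpa* was at 18.02 and 660.7 RPKM against 7.40 and 169.4, *Pparg* at 3.29 and 38.5 against 0.99 and 7.53, and *Adipoq* at 0.14 and 27.5 against 0.29 and 5.67. At day 2, *Igfbp2*, *Igfbp3* and *Igfbp5* thus differed past 2.5-fold in the same direction as these markers, and *Igf2* and *Igfbp7* in the opposite direction. *Igfbp4* was lower by less than 2.5-fold, and the other members did not pass it. Less the median of genes of like exon length, *Igfbp7* was no longer past 2.5-fold, and *Igf1r* was past it on the higher side. What part the lower adipocyte markers have in the values of the IGF genes was not tested.

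Other genes of the IGF pathway were taken from a list of 28, of which 19 passed the RPKM threshold. At day 2, 2 of the 19 were over 2.5-fold higher in the Ad-Cre than in the Ad-GFP cells and 6 over 2.5-fold lower, against 8.15% and 10.1% of expressed genes, with a median log2 ratio of −0.28 beside −0.16 over all expressed genes. The docking protein gene *Irs2* was at 13.1 and 150.4 RPKM in the Ad-GFP cells at days 0 and 2 and at 19.7 and 25.6 RPKM in the Ad-Cre cells, 5.86-fold lower in the latter at day 2 (−2.55, −2.62 to −2.48). *Insr*, the insulin receptor gene, was at 4.74 and 19.1 RPKM against 4.48 and 7.22, and *Irs1* at 9.86 and 13.1 against 14.96 and 4.68. Both were past 2.5-fold at day 2 (−1.40 and −1.48) but, as long transcripts, came to −0.59 and −0.67 less the length median. *Irs2* came to −2.11. In all, 4 of the 19 genes stayed over 2.5-fold lower and 2 higher with this correction. Of the 11540 expressed genes, 741 were over 2.5-fold lower and 1013 higher with the same correction.

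Proteases that cut the binding proteins moved in unlike directions. *Pappa*, whose product cuts IGFBP4, was at 1.39 and 5.52 RPKM in the Ad-GFP cells and at 7.13 and 29.7 RPKM in the Ad-Cre cells, 5.38-fold higher in the latter at day 2 (2.43, 2.34 to 2.51). It was 5.14-fold higher already at day 0 (2.36, 2.17 to 2.56). *Pappa2*, of the same family, had 24 and 276 reads in the Ad-GFP cells and 12 and 33 in the Ad-Cre cells and was 6.56-fold lower at day 2 (−2.71, −3.28 to −2.19). *Adam12*, a protease known to cut IGFBP3 and IGFBP5, was at 5.40 and 19.7 RPKM against 2.79 and 3.73, 5.27-fold lower at day 2 (−2.40). Less the length median, the day 2 log2 ratios were 3.24 for *Pappa*, −1.90 for *Pappa2* and −1.59 for *Adam12*, still past the threshold. *Stc2*, an inhibitor of PAPP-A, had 102 reads in the Ad-GFP and 28 in the Ad-Cre cells at day 2 (−1.51, −2.17 to −0.90, and −1.65 less the length median).

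*Htra1*, a secreted serine protease with an IGFBP domain that stands in both lists, fell from 38.3 to 6.00 RPKM in the Ad-GFP cells and rose from 5.88 to 34.2 RPKM in the Ad-Cre cells. It was 6.51-fold lower in the Ad-Cre cells at day 0 and 5.71-fold higher at day 2 (2.51, and 2.499 less the length median). *Airn* had 100, 64, 73 and 63 reads in the Ad-GFP day 0, Ad-GFP day 2, Ad-Cre day 0 and Ad-Cre day 2 libraries. *Igfals*, the acid-labile subunit that joins IGF and IGFBP3 in serum, had at most 2 reads. In the other comparisons, 6 of the 19 genes rose and 3 fell past 2.5-fold over time in the Ad-GFP cells, against 8.38% and 12.7% of expressed genes. In the Ad-Cre cells 4 rose and 3 fell, against 8.67% and 10.0%. At day 0, 1 was higher and 2 lower in the Ad-Cre cells, against 1.27% and 4.12%.

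Other secreted proteins with an IGFBP domain were taken from a list of 12, of which 9 passed the RPKM threshold. Over time, 7 of the 9 fell past 2.5-fold in the Ad-GFP cells and none rose, against 12.7% and 8.38% of expressed genes. In the Ad-Cre cells 6 fell and 2 rose, against 10.0% and 8.67%. At day 2, 5 of the 9 were over 2.5-fold higher in the Ad-Cre cells and 1 was lower, against 8.15% and 10.1%, with a median log2 ratio of 1.90 beside −0.16 over all expressed genes. At day 0, 3 were higher and 4 lower, against 1.27% and 4.12%. *Ccn1* and *Ccn4*, which encode matrix-associated CCN proteins, were 5.00-fold and 4.88-fold higher in the Ad-Cre cells at day 2 (2.32 and 2.29, and 2.31 and 2.87 less the length median). *Ccn1* fell from 55.7 to 4.01 RPKM in the Ad-GFP cells and from 207 to 20.04 RPKM in the Ad-Cre cells, and *Ccn4* from 33.9 to 4.87 and from 127.8 to 23.8 RPKM. *Htra3*, a relative of *Htra1*, had 83 and 147 reads in the Ad-GFP cells and 6 and 26 in the Ad-Cre cells at days 0 and 2.

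**Figure D5:**
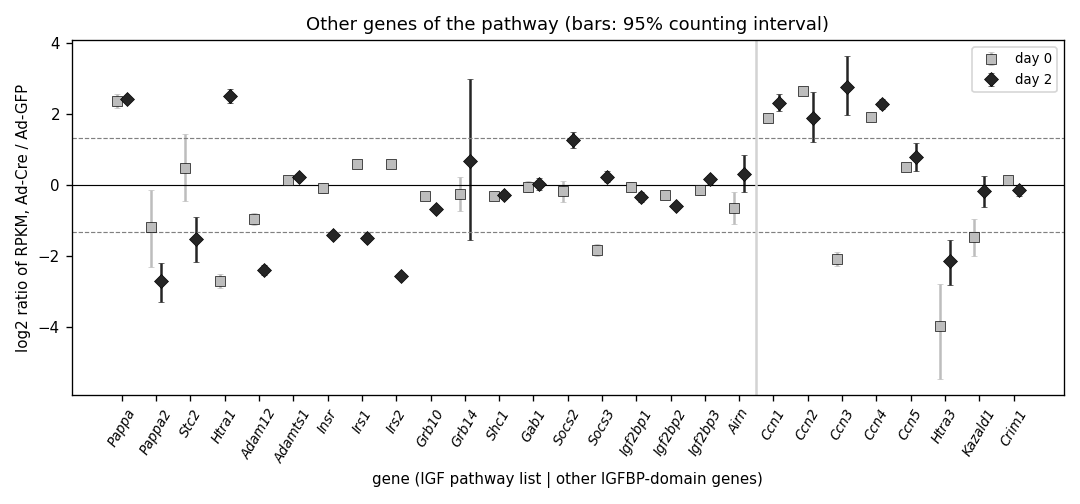
Log2 ratio of RPKM in Ad-Cre to Ad-GFP cells at day 0 (squares) and day 2 (diamonds) for the expressed genes of the IGF pathway list and, right of the grey line, other genes with an IGFBP domain, with bars for the 95% counting interval and dashed lines at 2.5-fold. *Pappa* is past 2.5-fold higher at both days, and *Htra1* goes from −2.70 at day 0 to 2.51 at day 2.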

How the data were processed

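RNA-Seq of 4 libraries was used, 1 for each kind of cells and day, grouped by the sample labels. Reads of 50 bases were aligned by the authors to NCBI37/mm9, and the authors deposited, for each RefSeq transcript, a whole-number count of exonic reads without normalization, and the RPKM, which the authors computed from that count, the exon length and the mapped reads. The submitters' processing notes name bedtools 2.16 and SICER 1.1 without their role. The study's methods name the Illumina Analysis Pipeline as the source of the mapped reads. The treatment of reads with several matches and strand are not given in the sources used here. Mapped reads were recovered from count and RPKM. Of 29082 transcripts, 28436 had a symbol in a RefSeq table of GRCm38.p6, used for names. *H19* and *Cd68* were not matched and are not analysed here.

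Ratios of RPKM between libraries were computed with scipy 1.17.1 (Python 3.11.15, numpy 2.4.6, pandas 2.3.3), with exact intervals. A ratio of ratios has the conditional exact interval of the odds ratio of its 4 counts. Genes that passed 1 RPKM on either day in the Ad-GFP libraries counted as expressed, and 2.5-fold was the threshold, after the study's methods. TMM factors came from edgeR 4.0.16 in R 4.3.3, and no edgeR test was run. Positions came from GENCODE vM1, promoters from RefSeq (GRCm38.p6), and windows were matched with blastn 2.17.0. All 10 members are named. From either list, genes past 2.5-fold at day 2 with at least 100 reads were named, at most 8 a list, beside *Airn*, *Igfbp1*, *Insr*, *Irs1*, *Irs2*, *Pappa*, *Stc2* and *Igfals* whatever their values. The members, the lists and the settings were chosen with earlier results of these data known. The intervals and the threshold were run on simulated counts that held counting error only. Those counts had no spread between libraries of a condition and no length dependence, so the run cannot speak to either. Figures used matplotlib 3.10.9.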

Additional observations from a re-analysis of the deposited data

Results flagged for a closer look

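The genes *Igf1*, *Igfbp6* and *Igfbp7* had ratios of day 2 to day 0 that went in opposite directions in the Ad-GFP and Ad-Cre cells, with counting intervals that excluded 0 in both. Only the members were searched for this, and the share of all expressed genes that meet the same rule was not counted. *Igf1* had a log2 ratio of −0.49 in the Ad-GFP and 1.61 in the Ad-Cre cells, *Igfbp6* of −3.23 and 1.64, and *Igfbp7* of −0.87 and 0.70. Of the 5 preadipocyte markers, *Cd34* (−2.93 and 3.08), *Dlk1* (−1.46 and 0.82) and *Ly6a* (−0.86 and 1.81) also had opposite directions over time. The others had the same direction in Ad-GFP and Ad-Cre cells, *Pdgfra* falling (−3.27 and −0.64) and *Ebf2* rising (0.73 and 1.21). The part of the markers in the values of the IGF genes was not tested. With 1 library per condition the difference was not tested against the spread between replicates. The Ad-Cre value of *Igfbp7* came to −0.11 in 1 of 9 other ways of computing the ratios, whereas those of *Igf1* and *Igfbp6* kept their direction in all 9.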

How the results depend on the processing

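No paired analysis was possible because each condition was 1 library and the labels give no replicate numbers, and for the same reason no library could be left out. Of 16 other settings, 9 change a ratio, and 37 of the 40 member ratios kept their sign under all 9. The exceptions were the ratios of day 2 to day 0 in the Ad-Cre cells of *Igf1r*, *Igfbp5* and *Igfbp7*, none of them past 2.5-fold. Of 19 ratios past 2.5-fold, 14 stayed past it under all 9, and of the 21 others, 20 passed it under none. With 1 RPKM added, the genes over 2.5-fold lower in the Ad-Cre cells at day 0 numbered 2 in place of 4, and so did those past it in either direction. Over all expressed genes, the lower then numbered 203 in place of 475 and the higher 83 in place of 146. At a threshold of 4-fold, 0 genes in place of 2 were higher in the Ad-Cre cells at day 2, and 3 in place of 5 were past it in either direction. Over all expressed genes, 395 in place of 940 were higher and 357 in place of 1161 lower at 4-fold. The other counts of members stayed within 1.5 times. Over all expressed genes, the 1161 lower in Ad-Cre cells at day 2 numbered 741 less the trend over exon length. Less that over length and GC content 541 were called, but of the 9817 expressed genes (85.1%) that have a GC value. TMM factors moved the median log2 ratio of expressed genes by 0.18 at day 2 between the kinds of cells and by −0.10 over time in the Ad-GFP cells. Depth limits *Igfbp3* and *Igfbp6* in the Ad-Cre cells at day 0, with 5 and 17 reads.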
